A study of Danio rerio with 12 samples.

Results

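The genes described here are 5 transcription factors of the forming somites and of the early muscle lineage of the zebrafish: *tcf15*, *dmrt2a*, *mafbb*, *myod1* and *myf5*. They were found by their gene symbols in the annotation of the array, where each has 1 probe set, so that 5 of the 15502 probe sets other than controls are described, and all 5 passed the filter on low signals that left 10851 for testing. Wild-type embryos of the AB line were raised at 23 °C to the stage of 12 somites, and 6 pieces of tissue were cut by hand along the paraxial mesoderm. Tissue from the middle of the tailbud, called its center, forms position 1, and tissue from its side, called the flank, position 2. Positions 3, 4 and 5 are posterior, center and anterior pieces of the presomitic mesoderm (PSM), and position 6 is the somites formed last. No embryo was treated or mutant, and all groups share line and stage. Each position has 2 arrays, labelled as biological replicates. At position 2 the first replicate is the left flank and the second the right, so that side and replicate cannot be told apart there. The sources used here do not give the number of embryos behind each sample.

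The paraxial mesoderm is fed by progenitors in the tailbud. Its cells pass through the PSM and leave it at the anterior end, where somites are cut off one after another. *tcf15*, known as paraxis, encodes a basic helix-loop-helix (bHLH) factor that mouse embryos need to make epithelial somites. *dmrt2a*, also called terra, encodes a DM-domain factor that zebrafish need to form left and right somites in step. *mafbb* encodes a basic leucine zipper factor of the large Maf family. *myod1* and *myf5* encode bHLH factors of the MyoD family, which commit cells to skeletal muscle and act together with E proteins. In zebrafish, the first muscle precursors are the adaxial cells, which lie beside the notochord and express both.

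The values are signals per probe set on a linear scale, and their mean without the top and bottom 2% is 150 on every array. Array medians ran from 27.3 to 68.3, and replicates correlated across probe sets with r from 0.829 to 0.973. Marker genes went with the labels only in part. The summed signal of 7 tailbud progenitor genes was 17232 and 18986 on the arrays of position 1, lay between 12689 and 16740 at positions 2 and 3, and was 1838 to 3070 at position 6. The summed signal of 8 PSM genes was 2656 and 2792 in the somites and 3762 to 7105 elsewhere. It did not set the PSM apart from the tailbud, with 4665 and 6387 at position 1. Of these genes, *hes6* had its highest mean at position 1 (3140). The means of *her7* were close at positions 1 to 3 (394, 376 and 372). Those of *dld* lay between 1030 and 1300 at all positions, with the highest at position 6. The other genes of this list had their highest means in the PSM. These were *her1* at position 3 (366), *tbx6* at position 4 (861), and *dlc*, *mespaa* and *mespba* at position 5 (926, 583 and 2140). Of 4 somite markers with a probe set, *nr2f5* and *aldh1a2* had their highest means at position 6, whereas *pax3a* did not pass the filter and *fgf8a* averaged 357 in the somites and 538 in the center of the tailbud. Other tissues were present too. The summed signal of 15 epidermal genes was 1344 and 2179 at position 1, 4133 to 10949 at positions 2 to 5, and 1200 and 3050 at position 6. That of 11 genes of blood, endothelium and intermediate mesoderm was 308 and 365 at position 1, and 1807 and 2253 at position 6, with up to 6559 at position 4. No signal in the table was 0. The part of these tissues in the results below was not tested. In pieces of tissue, fewer cells with a transcript and less transcript per cell cannot be told apart.

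*tcf15* rose along the axis, with a higher mean at each position than at the one behind. Its signals on the 2 arrays of each position were 10.5 and 10.8 in the center of the tailbud, 132 and 64.2 in the flank, and 290 and 170 in the posterior PSM. They were 530 and 302 in the center PSM, 1009 and 1121 in the anterior PSM, and 1236 and 1210 in the somites. Both arrays of each position thus lay above both arrays of the position behind it. That order held for 6 of the 10851 probe sets tested (0.0553%), of which *tcf15* is 1. Changes were measured as log2 of the signal plus 12.2, a scale that understates changes of low signals, and a change is called at an adjusted p under 0.05 in a limma model fitted to all probe sets. The fitted trend from position 1 to position 6 was 5.67 ± 0.29 (SE, adjusted p = 6.79e-11). The means were 1223 ± 18.5 in the somites and 10.7 ± 0.212 in the center of the tailbud (SD, n = 2), 54-fold apart on that scale (5.76 ± 0.35, adjusted p = 1.42e-09). Because the tailbud signal is low, the size depends on the offset, and the log2 difference ran from 4.39 to 6.84 over the alternatives. The only single step called for *tcf15* was the first, flank over center tailbud (2.2 ± 0.35, adjusted p = 0.00179). This call was lost when the variances did not follow the intensity (adjusted p = 0.081) and when only those 4 arrays were fitted (adjusted p = 0.301).

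**Figure D1:**
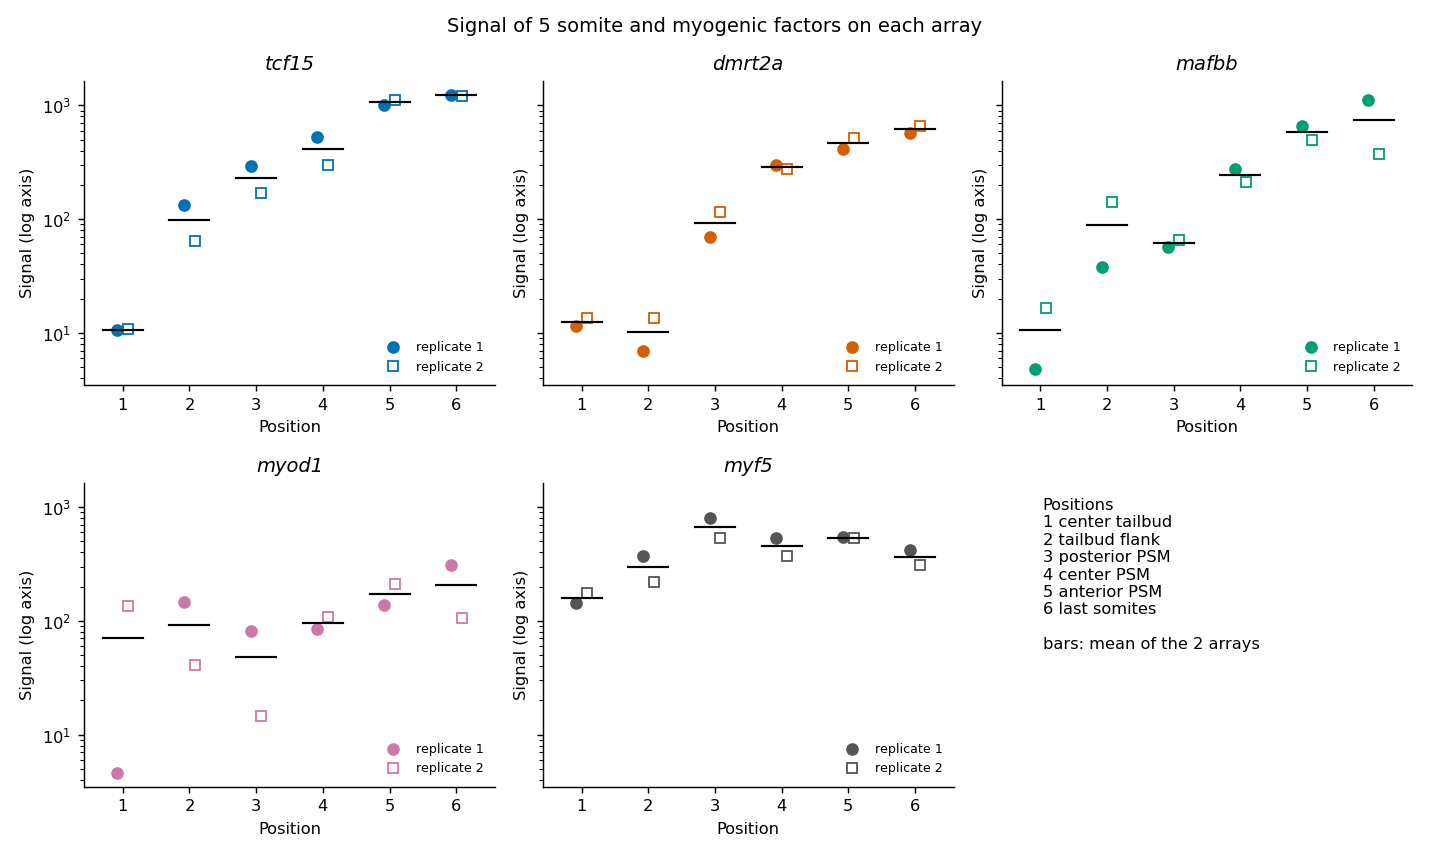
Signal on each array (log axis) against position for the 5 factors, with replicates 1 and 2 as filled circles and open squares and bars for the mean of the 2 arrays. For *tcf15* both arrays of every position lie above both of the position behind it, while the arrays of *myod1* lie far apart at position 1 (4.6 and 136).

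*dmrt2a* stayed low across the whole tailbud and came up in the PSM. It measured 11.6 and 13.5 in the center of the tailbud and 6.9 and 13.6 in the flank, so these groups overlapped (-0.16 ± 0.38, adjusted p = 0.89). In the posterior PSM it measured 69.2 and 115, in the center PSM 296 and 276, in the anterior PSM 411 and 518, and in the somites 567 and 661. From the flank onward the arrays of neighbouring positions did not overlap, but how many of all probe sets do the same was not counted. The step from the flank to the posterior PSM was called (2.19 ± 0.38, adjusted p = 0.021). The call did not hold with an offset of 50.2 (1.22, adjusted p = 0.12), and 7 of the 12 fits that leave out 1 array also lost it, with adjusted p up to 0.316 without replicate 2 of the posterior PSM. Between the ends the call held in all alternatives run. *dmrt2a* averaged 614 ± 66.9 in the somites and 12.6 ± 1.34 in the center of the tailbud (SD, n = 2), a log2 difference of 4.66 ± 0.38 (adjusted p = 9.26e-08). The fitted trend was 5.44 ± 0.33 (adjusted p = 4.76e-10).

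*mafbb* rose along the axis and, within it, between the posterior and the anterior PSM. Its signals were 4.8 and 16.6 in the center of the tailbud, 37.7 (left) and 141 (right) in the flank, and 57.2 and 66 in the posterior PSM. They were 275 and 210 in the center PSM, 661 and 494 in the anterior PSM, and 1113 and 374 in the somites. The arrays of the center PSM lay above all arrays of the tailbud and posterior PSM, and those of the anterior PSM above all arrays of the center PSM. How many of all probe sets do the same was not counted. Neither the step from posterior to center PSM nor that from center to anterior PSM was called (adjusted p = 0.288 and 0.644). The 2 somite arrays lay on either side of the anterior PSM, and that step had no settled sign: it was 0.18 ± 0.51 (adjusted p = 0.93), and -0.59 without replicate 1 of the somites. The anterior PSM exceeded the posterior PSM by 2.99 ± 0.51 (adjusted p = 0.00226), a call that was lost without replicate 1 of either position (adjusted p = 0.0559 without that of the posterior PSM and 0.0726 without that of the anterior PSM) and with variances that did not follow the intensity (adjusted p = 0.104). Over the whole axis the trend was 4.93 ± 0.43 (adjusted p = 1.22e-07), and the somites exceeded the center of the tailbud by 4.90 ± 0.51 (adjusted p = 1.95e-06). The right flank, with the higher *mafbb* signal, also had the higher sum of blood, endothelium and intermediate mesoderm genes (3130 against 444 on the left). Its epidermal sum was higher too (10949 against 5845). In the center of the tailbud, posterior PSM and anterior PSM, the replicate with more *mafbb* again had the higher blood, endothelium and intermediate mesoderm sum. The reverse held in the center PSM (2736 and 6559 in replicates 1 and 2) and in the somites (1807 and 2253). Large Maf factors also act in myeloid cells and in the hindbrain. In replicates 1 and 2, the 6 macrophage and myeloid markers summed to 122 and 57.3 in the center of the tailbud. Their sums in the same order were 410 and 698 in the flank and 215 and 436 in the posterior PSM. Further forward they were 629 and 731 in the center PSM, 546 and 246 in the anterior PSM, and 337 and 281 in the somites. The part of myeloid cells in the *mafbb* values was not tested. The probe set of *mafbb* has the suffix that Affymetrix gives to sets whose probes match several transcripts, and no second probe set was at hand to compare.

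*myf5* took another course: it was already present in the tailbud, was highest in the posterior PSM and had lower means at all positions further forward. It measured 144 and 176 in the center of the tailbud, 371 and 217 in the flank, and 807 and 530 in the posterior PSM. Further forward it measured 535 and 368 in the center PSM, 549 and 529 in the anterior PSM, and 423 and 308 in the somites. The arrays of the center and anterior PSM overlapped with those of the posterior PSM, and the somite arrays lay below all arrays of the posterior and anterior PSM. The share of all probe sets with such an order was not counted. The posterior PSM exceeded the center of the tailbud by 1.96 ± 0.30, or 3.89-fold (adjusted p = 0.00104), although without replicate 1 of the posterior PSM that was 1.66 and not called (adjusted p = 0.0642). The somites were lower than the posterior PSM by a difference that was not called (-0.84 ± 0.30, adjusted p = 0.104). The somites were higher than the center of the tailbud, with 365 ± 81.6 against 160 ± 22.3 (SD, n = 2; 1.12 ± 0.30, adjusted p = 0.0192). This last call was lost without replicate 1 of the center of the tailbud (0.99, adjusted p = 0.125), without replicate 1 of the somites (0.90, adjusted p = 0.177) and with variances that did not follow the intensity (adjusted p = 0.132). A straight line describes such a course poorly, and the fitted trend was 1.11 ± 0.25 (adjusted p = 0.00499).

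**Figure D2:**
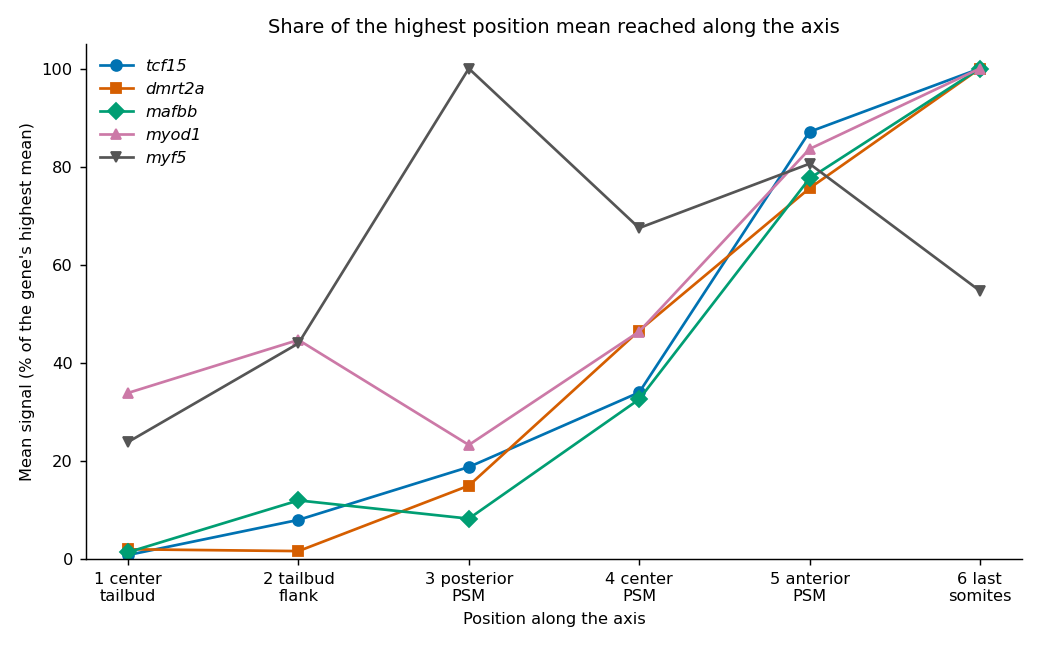
Mean signal of each factor at the 6 positions as a percentage of that factor's highest position mean. *myf5* reaches 100% in the posterior PSM (position 3), where *tcf15*, *dmrt2a* and *mafbb* stand at 18.8%, 15% and 8.28% of the level they reach in the somites.

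The replicates of *myod1* lay far apart at several positions. It measured 4.6 and 136 in the center of the tailbud, 145 (left) and 40.5 (right) in the flank, and 82 and 14.7 in the posterior PSM. Its signals were closer together in the center PSM (84.4 and 108) and anterior PSM (137 and 210). The somite replicates lay apart again (309 and 107). The higher replicate exceeded the lower 29.6-fold in the center of the tailbud, 3.58-fold in the flank and 5.58-fold in the posterior PSM. At positions 4, 5 and 6 this ratio was 1.28, 1.53 and 2.89. *myod1* was called in none of the 15 comparisons between positions, and neither by the F test for any difference (adjusted p = 0.28) nor along the trend (1.99 ± 0.68, adjusted p = 0.062). At an unadjusted p under 0.05 in limma, the trend and 4 of the 15 comparisons passed, but the share of all probe sets passing so was not counted. The trend depended on single arrays: it was 3.11 (adjusted p = 0.00227) without replicate 2 of the center of the tailbud, and it was also called without replicate 1 of the flank (2.33, adjusted p = 0.04) or of the posterior PSM (2.12, adjusted p = 0.0497). The difference between somites (208 ± 143) and center of the tailbud (70.5 ± 93.1; SD, n = 2) was 1.97 ± 0.81 (adjusted p = 0.153), or 3.54 (adjusted p = 0.00686) without that same tailbud array.

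The tailbud array with the high *myod1* signal also had higher signals than the other for most listed markers of notochord, floor plate and neural tube. In replicates 1 and 2 of the center of the tailbud, the notochord factor *noto* measured 53.3 and 1282, the signal gene *shha* 4.6 and 210, and the forkhead gene *foxa2* 3.9 and 261. These 3 were picked after their values were seen, and *foxa2* did not pass the filter. Of 9 markers of notochord and floor plate, 7 were higher in replicate 2 of the center of the tailbud. The others, *tbxta* (1950 and 1390) and *col8a1a* (23.9 and 10.6), were higher in replicate 1. The summed signal of the 9 was 2062 and 4091 there, of which *tbxta*, shared with the tailbud progenitors, made up a large share. In the flank the sums were 1191 on the left, where *myod1* was higher too, and 651 on the right, and 8 of the 9 markers were higher on the left. In replicates 1 and 2 the sums were 496 and 882 in the posterior PSM and 445 and 817 in the center PSM. They were 401 and 338 in the anterior PSM and 566 and 385 in the somites. In the somites, where *myod1* was higher in replicate 1, 8 of the 9 markers were higher in replicate 2. The higher sum of replicate 1 there came with *ntd5* (467 and 255). In the center PSM 6 of the 9 and in the anterior PSM 4 were higher in replicate 2, where *myod1* was higher too. Of 13 markers of neural tube and hindbrain, 11 were higher in replicate 2 of the center of the tailbud. The others, *sox2* (371 and 341) and *sox19b* (36.8 and 18.8), were higher in replicate 1. The sums of the 13 in replicates 1 and 2 were 1096 and 3628. In the posterior PSM, where *myod1* was at 82 and 14.7, the markers went both ways: *noto* measured 75.4 and 206, *shha* 12.8 and 8.4, and *foxa2* 33.8 and 16.1. There 7 of the 9 notochord and floor plate markers were higher in replicate 2, and the neural sums were 1909 and 3128. The early muscle targets with a probe set numbered 25. In the center of the tailbud, 15 were higher in replicate 2 and 10 in replicate 1. Their sums in replicates 1 and 2 there were 1865 and 3743, of which the actin gene *actc1a* alone made up 92.9 and 1445. In the flank, 18 were higher in the left array, where *myod1* was higher too, and 7 in the right, with sums of 2852 and 1736. In the posterior PSM, 13 were higher in replicate 2 and 12 in replicate 1, and the sums in replicates 1 and 2 were 5017 and 5399. The share of all probe sets higher in each replicate was not counted. Array medians in replicates 1 and 2 were 36.2 and 47.5 in the center of the tailbud and 47.8 and 63.6 in the posterior PSM. In the flank they were 68.3 on the left and 57.5 on the right. Most of the marker and target counts above leaned to the array with the higher median, and the part of this was not tested. What part neighbouring axial and neural tissue has in the *myod1* values was not tested.

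**Figure D3:**
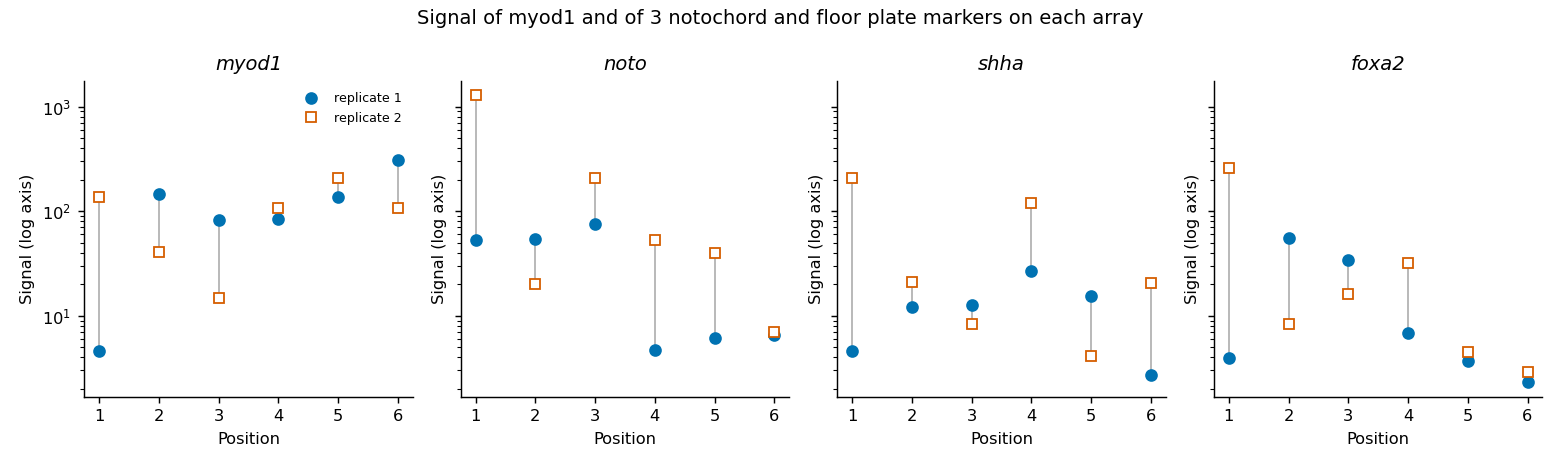
Signal on each array (log axis) against position for *myod1* and for the notochord and floor plate markers *noto*, *shha* and *foxa2*, with lines joining the 2 replicates of a position. At position 1 replicate 2 is the higher array for all 4 genes, whereas at position 3 replicate 2 is the lower array for *myod1*, *shha* and *foxa2* and the higher for *noto*.

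Calls against the center of the tailbud are given position by position, and whether the factors differ in where they first come up was not tested. In the flank 1 of the 5 was called higher (*tcf15*), where 1.11% of all tested probe sets were. *mafbb* was not called there, but its difference was nearly as large (1.98 ± 0.51, adjusted p = 0.0595). It was called without replicate 1 of the flank (2.79, adjusted p = 0.0115), without either somite array (adjusted p = 0.0481 and 0.0408) and with no offset (3.03, adjusted p = 0.0277). In the posterior PSM 3 were called (*tcf15*, *dmrt2a* and *myf5*; all probe sets 1.27%). The difference of *mafbb* there was 1.74 ± 0.51 (adjusted p = 0.116). In the center PSM 4 of 5 were called, *mafbb* among them (all probe sets 2.57%), and the same 4 were higher at position 5 (all probe sets 3.11%) and at position 6 (all probe sets 5.41%). Several of these calls were lost in other fits. *dmrt2a* in the posterior PSM was not called under median centring (1.71, adjusted p = 0.0516), without replicate 2 of the posterior PSM (1.72, adjusted p = 0.118) or with only the 4 arrays compared (adjusted p = 0.187). *myf5* was called at none of the 3 PSM positions when the variances did not follow the intensity (adjusted p = 0.0915, 0.108 and 0.0509 from posterior to anterior). In the center PSM it was also lost under median centring (1.00, adjusted p = 0.155), without replicate 1 of the center of the tailbud (adjusted p = 0.0536) and without replicate 1 of the center PSM (adjusted p = 0.116). The F test called 4 of the 5 (all probe sets 11.2%), and along the trend 4 of 5 rose (all probe sets 7.1%) and 0 fell (all probe sets 6.12%). The set was put together with earlier results of these arrays in view, so that these counts are a description.

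**Figure D4:**
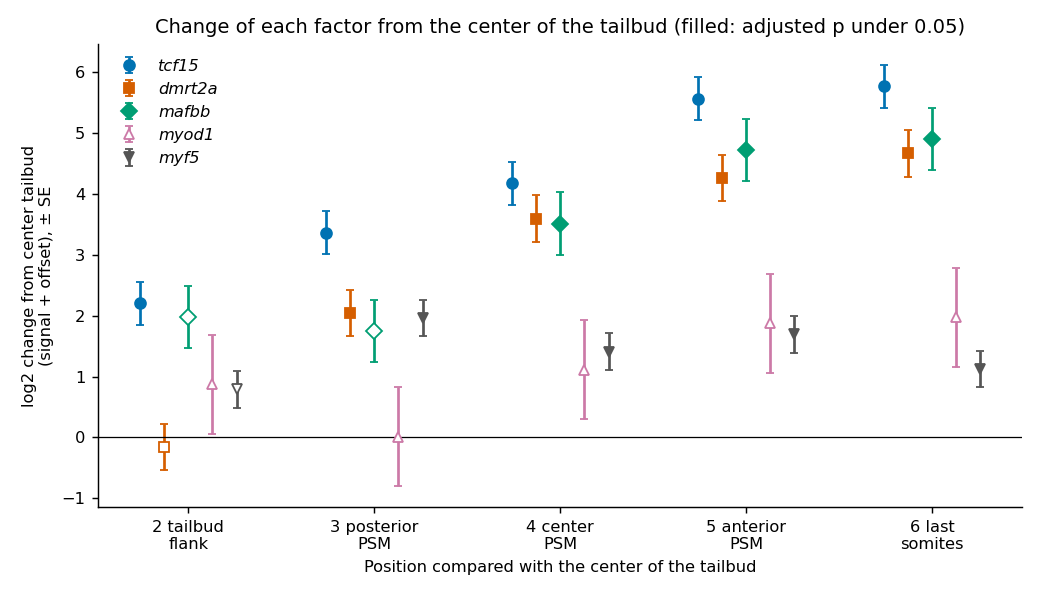
Log2 change of each factor from the center of the tailbud to the 5 other positions, with SE bars and filled symbols for calls at an adjusted p under 0.05. *tcf15* is called from the flank onward, *dmrt2a* and *myf5* from the posterior PSM and *mafbb* from the center PSM, and *myod1* has open symbols throughout.

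Between neighbouring positions few differences were called after adjustment. Many pairs of neighbours did not overlap, but the share of all probe sets without overlap was not counted, so that is no support for a step. Beyond the flank, the step to the posterior PSM was called for 1 factor (*dmrt2a*; 0.111% of all probe sets were higher there). The steps from posterior to center PSM and from center to anterior PSM were called for 0 of the 5, and again 0.111% of all probe sets were higher at each. At an unadjusted p under 0.05 in limma, *tcf15* (0.81), *dmrt2a* (1.55) and *mafbb* (1.78) passed at the first of these steps, and *tcf15* (1.38) and *mafbb* (1.21) at the second. The share of all probe sets passing unadjusted was not counted. Fitted on only the 4 arrays compared, *dmrt2a* and *mafbb* were called at the first of them and *tcf15* and *mafbb* at the second. Such fits called 0.912% and 0.848% of all probe sets in either direction, against 0.221% and 0.212% in the main fit. Over both steps together, from posterior to anterior PSM, the same 3 were higher (0.627% of all probe sets). *tcf15* rose there by 2.2 ± 0.35 (adjusted p = 0.000994) and *dmrt2a* by 2.22 ± 0.38 (adjusted p = 0.0024). Each of these lost its call without 1 array, *tcf15* without replicate 2 of the posterior PSM (adjusted p = 0.0522), and *dmrt2a* without replicate 1 of the posterior PSM (adjusted p = 0.0668) or replicate 2 of the anterior PSM (adjusted p = 0.0917). The *tcf15* call was also lost with variances that did not follow the intensity (adjusted p = 0.0743).

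From the anterior PSM to the somites 0 of the 5 were called, at adjusted p from 0.478 to 0.976, and 0 passed at an unadjusted p under 0.05 in limma; 0.7% of all probe sets were higher there. *tcf15* averaged 1223 ± 18.5 in the somites and 1065 ± 79.1 in the anterior PSM, and *dmrt2a* 614 ± 66.9 and 464 ± 75.7 (SD, n = 2). The log2 differences were 0.20 ± 0.35 for *tcf15* and 0.40 ± 0.38 for *dmrt2a* (SE). Over the alternatives they reached 0.71 and 0.91, so that a rise at this step is neither shown nor excluded. The somites exceeded the center PSM for 1 factor, *tcf15* (1.58 ± 0.35, adjusted p = 0.0118; 2.31% of all probe sets), a call that was lost without replicate 2 of the center PSM (1.19, adjusted p = 0.206) or without either somite array (adjusted p = 0.0934 and 0.0793), and with variances that did not follow the intensity (adjusted p = 0.0967). Ordered by level, the anterior 2 positions were the highest for *tcf15*, *dmrt2a*, *mafbb* and *myod1*. In these orders the only neighbours called apart were flank and center of the tailbud for *tcf15*, and posterior PSM and center of the tailbud for *dmrt2a* (2.04 ± 0.38, adjusted p = 0.00624). For *myf5* the order was posterior PSM, anterior PSM, center PSM, somites, flank and center of the tailbud, and no neighbours in it were called apart.

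Across the 12 arrays, which share tissue pieces, scaling and position, *tcf15*, *dmrt2a* and *mafbb* followed each other with Pearson r of 0.87 to 0.91. Correlations of *myod1* and *myf5* with these 3 were between 0.49 and 0.72, and *myod1* and *myf5* correlated with each other at 0.36. Among 6413 other genes, those most like *tcf15* were *fgfrl1a*, an FGF receptor-like gene (r = 0.980), *pcdh10b*, a protocadherin gene (0.978), *efemp2b*, *nr2f5*, an orphan nuclear receptor gene, and *cpn1* (0.976 each). *fgfrl1a* measured 887 ± 49.9 in the somites, 292 ± 17.9 in the center PSM and 7.1 ± 6.22 in the center of the tailbud. Most like *mafbb* were *rbbp9* (0.974), *aktip* (0.970), *nr2f2* and *aldh1a2*, which encodes the enzyme that makes retinoic acid (0.947 each), and *ahnak* (0.942). The trend of *rbbp9* was 0.94 on the probe set used and -0.08 on its other tested one. For *nr2f2* these trends were 4.21 and 1.24, and neither of the other probe sets was called. Most like *dmrt2a* were *pprc1* (0.978), *rasgef1ba* (0.958), *pdss1*, *unc45b*, a myosin chaperone gene (0.957 each), and *cebpz* (0.956). *unc45b* measured 1640 ± 69.4 in the somites, 589 ± 33.0 in the posterior PSM and 266 ± 58.5 in the flank, and along the trend *nr2f5* rose by 7.53, *aldh1a2* by 6.68 and *rasgef1ba* by 4.45.

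For the MyoD family factors the closest genes were less alike. *myl10* had r = 0.885 with *myod1*, followed by *ankmy2a* (0.855), *sh3rf1* (0.826), *phf23b* (0.817) and *foxo3b* (0.815). *myl10* measured 475 and 304 in the somites and 95.8 and 6.5 in the posterior PSM, where its replicates were apart like those of *myod1*. Most like *myf5* were *ogfod1* (0.926), *ddt* and *cmasa* (0.849 each), *wdr43* (0.843) and *sfrp1a*, a secreted Wnt binding protein gene (0.842). The trend of *ddt* was 0.10 on the probe set used and 1.07, not called, on its other tested one. *sfrp1a* measured 82.5 ± 6.65 and 83.6 ± 4.38 in the posterior and center PSM, 28.0 ± 0.636 in the somites and 3.55 ± 0.636 in the center of the tailbud. Without 1 array, between 0 and 5 of the 5 genes nearest to *myod1* stayed among its nearest 5, and between 4 and 5 of those nearest to *tcf15*.

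The genes that work with these factors were taken from lists by role. The lists were drawn up with earlier results of these arrays known. The median trend of all probe sets was -0.13, or 0.01 under quantile normalization and 0.24 under median centring. Of all tested probe sets, 7.1% rose and 6.12% fell along the trend, which is the share to set beside each count of list genes below. Of 4 E-protein genes, which encode the partners of the MyoD family and of paraxis, 2 had a probe set and 1 was tested: *tcf12* rose (1.77, adjusted p = 0.000903), with 540 in the somites and 210 in the center of the tailbud on average, and its 3 other tested probe sets had the same sign, 1 of them called. Of 6 tested genes for bHLH inhibitors of the Id and Twist groups (12 listed, 7 with a probe set), 1 rose and 0 fell (median 0.04). It was *id1*, whose product holds E proteins away from their partners (0.75, adjusted p = 0.0289), and under quantile normalization it was not called.

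Upstream factors and cofactors of the myogenic factors went both ways. Of 12 tested (28 listed, 13 with a probe set), 4 rose and 2 fell. Their median was -0.05, but 0.20 with quantile normalization and 0.31 with median centring. The homeobox genes *six4a* and *six4b* and their cofactor gene *eya1*, which activate MyoD family genes, rose by 2.41, 2.96 and 2.61. *six4a* measured 256 in the somites and 28.6 in the center of the tailbud on average, and *eya1* 319 and 15.9 in the same order. *tbx6* rose by 3.19 along the trend but was highest in the center PSM, at 821 and 902. The T-box genes *tbx16* and *tbxta*, which act on early muscle genes in zebrafish, fell by 6.38 and 5.37 on the log2 scale. *tbx16* averaged 1940 and 1500 at positions 1 and 2, 1330 at position 3 and 17.6 at position 6.

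Of 3 tested later myogenic factors (10 listed, 5 with a probe set), 1 rose and 0 fell: *mef2d*, which acts beside the MyoD family on muscle genes, by 2.11 (adjusted p = 0.000662; list median -0.30, or 0.06 under both scalings). *myog*, the myogenin gene that follows *myod1* and *myf5*, did not pass the filter and was not tested. It measured 120 and 61.3 in the somites and 3.0 to 31.6 on the 10 other arrays. Of 19 tested early muscle targets (43 listed, 25 with a probe set), 10 rose and 1 fell, with a median of 1.77. The largest rises were those of the myosin chaperone gene *hsp90aa1.1* (5.96), titin (*ttn.2*, 5.67), the actin gene *actc1a* (3.79), *unc45b* (3.14) and the desmin gene *desma* (2.42). *jam3b*, which encodes an adhesion protein of fusing muscle cells, fell by 0.60 (adjusted p = 0.0413), and under median centring 0 of the list fell. *acta1a* measured 526 and 314 in the somites and 50.9 and 30.6 in the anterior PSM.

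**Figure D5:**
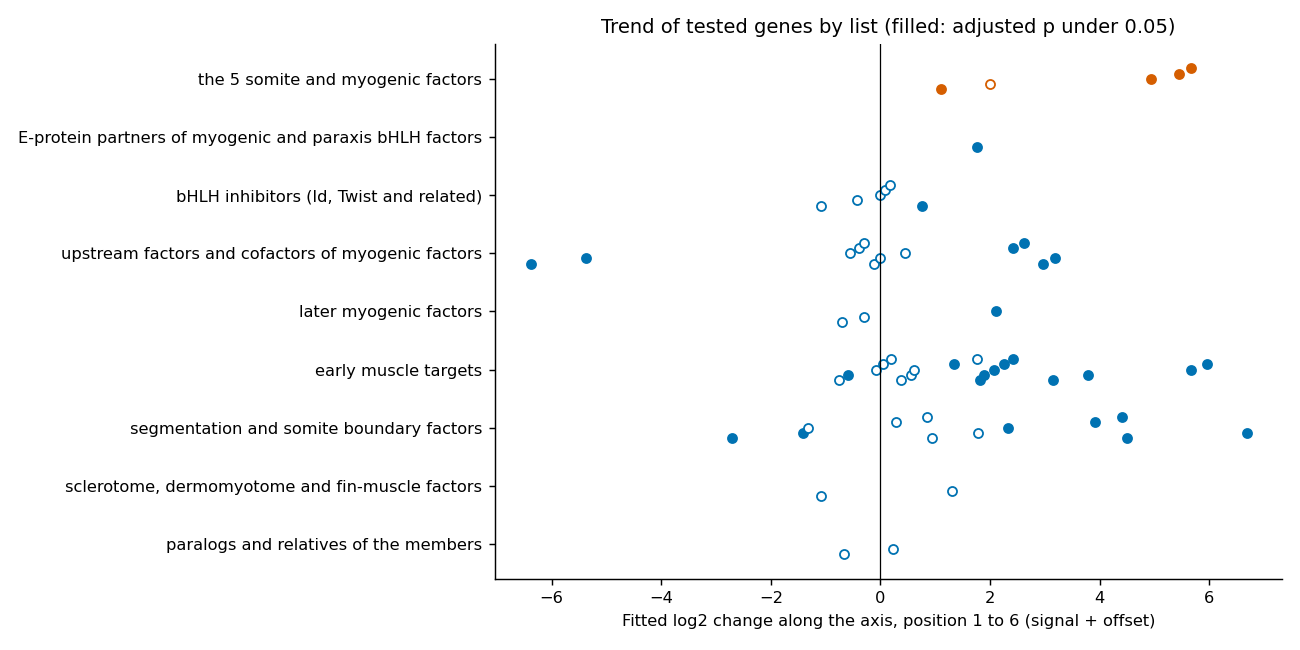
Fitted log2 change along the axis for the 5 factors (top row) and for the tested genes of each list by role, with filled points for calls at an adjusted p under 0.05. Of the early muscle targets 10 of 19 lie filled to the right of 0, and the filled points far to the left are *tbx16* and *tbxta*.

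Among factors of segmentation and somite boundaries, 5 of 12 tested genes rose and 2 fell (23 listed, 14 with a probe set, median 1.36). *aldh1a2*, the Notch target *hey1*, the boundary factor *mespba* and the protocadherin genes *pcdh10b* and *pcdh8* rose by 6.68, 4.50, 4.40, 3.92 and 2.33. *hes6* and *epha4a* fell by 2.70 and 1.42 on the log2 scale. *mespba* averaged 93.1 in the somites and 2140 in the anterior PSM. Of the sclerotome, dermomyotome and fin muscle factors (17 listed, 8 with a probe set) 2 were tested and 0 were called, *zic1* at 1.30 (adjusted p = 0.215) and *pax9* at -1.09 (adjusted p = 0.278). Of the paralogs and relatives of the 5 factors (16 listed, 3 with a probe set) 2 were tested and 0 were called, *dmrt3a* at 0.23 (adjusted p = 0.879) and *maff* at -0.66 (adjusted p = 0.552), and both scalings turned their median of -0.22 (0.09 with quantile normalization, 0.15 with median centring).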

How the data were processed

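The table as deposited gives 1 intensity for each probe set and array on a linear scale, a MAS5 signal per the submitters' processing notes, from biotin-labelled cRNA on the Affymetrix Zebrafish array per the labels. The table holds no detection calls, and genome positions and sequences were not used here. The 115 control probe sets were left out. Symbols come from the platform annotation, updated through gene IDs of the RefSeq table where possible. The signals were taken as log2(signal + 12.2), the offset being the 25th percentile of all values, and probe sets with a mean below the 30th percentile were left out (4651). The signals were not normalized again. All 12 arrays entered 1 limma model (version 3.58.1, R 4.3.3) of the 6 means, whose moderated variances depend on the intensity (6 residual and 12.84 prior degrees of freedom). Tests were two-sided: F test, linear trend and all 15 differences between positions, each adjusted after Benjamini-Hochberg over the 10851 probe sets. The precision is limited by 2 arrays per position.

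The genes described and the lists were chosen with earlier results of these data known. For a gene with several probe sets, the one of highest mean was used. Named are the 5 factors, the 5 genes of highest Pearson r with each, and up to 5 called genes of a list in each direction. *acta1a*, *myog*, *noto*, *shha*, *foxa2*, *pax3a*, *fgf8a* and the uncalled *zic1*, *pax9*, *dmrt3a* and *maff* fall outside this rule and were chosen after their values were seen. The same holds for the uncalled markers *dld*, *dlc*, *mespaa*, *col8a1a*, *ntd5* and *sox19b*. Alternatives were quantile normalization, median centring, other offsets and filters, and moderated variances that did not follow the intensity. Others were array weights, a replicate block, 1 value per gene, fewer positions and leaving out each array. A left-out array leaves its position with 1, assumed to vary like the others. The procedure was checked on simulated data. Figures were drawn with matplotlib 3.10.9.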

Additional observations from a re-analysis of the deposited data

How the results depend on the processing

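The trends and the differences between somites and center of the tailbud of *tcf15*, *dmrt2a* and *mafbb* were called in all alternatives run. The log2 trend lay between 4.50 and 6.52 for *tcf15*, 3.93 and 6.64 for *dmrt2a* and 3.69 and 5.97 for *mafbb* over the alternatives that keep all replicates. Of 940 repeats of 40 results (F test, trend, difference between the ends and the 5 steps between neighbours for each of the 5 factors), 896 kept direction and call, 18 lost a call, 18 gained one and 8 changed sign. Most of the 40 were not called in the main fit, so many of the 896 are results that stayed uncalled. Among repeats of the other differences between positions, 1018 kept direction and call, 26 lost a call, 11 gained one and 10 changed sign. With variances that did not follow the intensity, 13 calls between positions, F tests or trends of the 5 factors were lost. *tcf15* lost its first step (2.2, adjusted p = 0.081), *dmrt2a* its step into the posterior PSM (2.19, adjusted p = 0.126), and *myf5* its F test (F = 7.399, adjusted p = 0.0804), trend (1.11, adjusted p = 0.0648) and difference between somites and center of the tailbud (1.12, adjusted p = 0.132). Also lost were anterior minus posterior PSM for *tcf15* (adjusted p = 0.0743) and *mafbb* (0.104), somites minus center PSM for *tcf15* (0.0967), center PSM minus flank for *tcf15* (0.114), anterior PSM minus flank for *mafbb* (0.074), and the 3 differences of *myf5* between PSM and center of the tailbud (0.0915, 0.108 and 0.0509). The calls of all probe sets then numbered 839 along the trend, against 1434, and 419 by the F test, against 1210. Fitted on only the 4 arrays compared, the first 2 of these steps were not called (2.2 and 2.19, adjusted p = 0.301 and 0.587). In such fits *dmrt2a* (1.55) and *mafbb* (1.78) passed from posterior to center PSM, *tcf15* (1.38) and *mafbb* (1.21) from center to anterior PSM, and *myf5* (1.17) from flank to posterior PSM. Of all probe sets, these fits called 0.912%, 0.848% and 0.424% in the same order of steps, in either direction. Without position 2, *dmrt2a* passed from posterior to center PSM (1.55, adjusted p = 0.0426). Its step into the posterior PSM was also lost with the higher offset (1.22) and with array weights (2.19). With no offset, *mafbb* passed from center to flank of the tailbud (3.03, adjusted p = 0.0277). The *myod1* trend was called under median centring (2.35), with array weights (1.99) and without position 2 (2.29). For *myod1*, the posterior PSM minus the center of the tailbud, 0.01, turned to -0.15 with quantile normalization, -0.31 with median centring and -0.13 with the higher offset. The *myf5* difference of somites minus center PSM turned to 0.47 with median centring. The F test called 1810 probe sets with median centring. The cause of these changes was not tested.

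Leaving out 1 array at a time gave the following ranges. For *dmrt2a*, flank minus center tailbud ran from -0.37 to 0.06 and posterior PSM minus flank from 1.87 to 2.52. For *mafbb*, flank minus center tailbud ran from 1.17 to 2.79, posterior PSM minus flank from -1.06 to 0.56 and somites minus anterior PSM from -0.59 to 0.95. For *myod1*, F ran from 1.54 to 5.74 and the trend from 0.87 to 3.11. Against the center tailbud, *myod1* ran from -0.71 to 2.44 in the flank, -1.56 to 1.58 in the posterior PSM, -0.46 to 2.68 in the center PSM and 0.39 to 3.54 in the somites. Against the flank it ran from -1.76 to 0.05 in the posterior PSM and -0.54 to 1.03 in the center PSM, and the somites minus the anterior PSM from -0.62 to 0.82. For *myf5*, somites minus center tailbud ran from 0.90 to 1.35, somites minus flank from -0.04 to 0.70 and anterior minus posterior PSM from -0.57 to 0.02. Between 1 and 4 of the 5 genes most like *dmrt2a*, 2 and 4 of those most like *mafbb*, 0 and 5 for *myod1* and 1 and 4 for *myf5* stayed among the nearest 5. With Spearman correlation, 3 stayed for *tcf15*, 1 for *dmrt2a*, 2 for *mafbb*, 1 for *myod1* and 3 for *myf5*. With no offset 3 stayed for *dmrt2a* and 3 for *myod1*, and with quantile normalization 2 each for *dmrt2a*, *myod1* and *myf5*.

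The labels number the replicates but name no shared litter, batch or day. Differences between replicates correlated between positions at -0.0707 to 0.0848 over 15 pairs of positions. Correlations this small cannot decide whether samples of the same number were paired. The array median was higher in replicate 2 than in replicate 1 at every position but the flank. With the replicate number as a block, 0 of 85 calls of the 5 factors changed, and the trends were 5.67 for *tcf15*, 5.44 for *dmrt2a*, 4.93 for *mafbb*, 1.99 for *myod1* (adjusted p = 0.0622) and 1.11 for *myf5*, with 1506 probe sets called along the trend. The arrays give no detection calls, so whether the lowest signals, such as 4.6 for *myod1*, lie above background is not known here, and 2 arrays a position limit what single steps can show.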
